A study of Mus musculus with 6 samples.

Results

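The 9 genes described here belong to the oligodendrocyte lineage: the regulators OLIG1, OLIG2 and SOX10, and the myelin genes CNP, MBP, MOG, MAG, MOBP and OPALIN. They were taken by symbol, with case ignored, from the 19378 genes listed over 6 mouse sections in which histone marks were profiled by position. The adult wild-type brain was profiled for H3K4me3 in a cryosection of 20 µm. Wild-type whole embryos at stage E11.5 were profiled for H3K27me3, H3K27ac and H3K4me3 in cryosections of 16 µm, 1 section for each mark. Decalcified, paraffin-embedded paw sections of 4 µm were profiled for H3K27ac, 1 from an adult mouse with collagen-induced arthritis at 42 days and 1 from an adult control at 42 days. All 9 genes were listed in the 3 embryo sections and in the control paw. The brain listed 7, without MBP and MOBP, and the arthritis paw listed 7, without OLIG1 and MBP. Each group was 1 section, so no test across animals was possible. Intervals below cover counting error at 95% and take reads as independent.

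Oligodendrocytes wrap axons of the brain and spinal cord in myelin. OLIG1 and OLIG2 are basic helix-loop-helix transcription factors and SOX10 is an HMG-box factor, and the 3 act as regulators of the lineage. OLIG2 is also used in the ventral neural tube of the embryo, where progenitors first make motor neurons, and SOX10 is also a factor of the neural crest and of Schwann cells, the myelinating cells of peripheral nerve. Of the marks, H3K4me3 sits at the promoters of active genes, H3K27ac at promoters and enhancers in use, and H3K27me3 over chromatin that Polycomb complexes keep silent.

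The promoters of the 4 genes on which the results below turn most are given first, to show how they differ in CpG content. OLIG2 and OPALIN had the highest H3K27me3 ratios among the 9 genes in the embryo, and CNP and MAG differed most in H3K27ac between the paws. Each sequence is the RefSeq window of build GRCm38.p6, from 250 bases before to 50 bases after the start of the gene, in the direction of transcription, with every CpG dinucleotide in capitals. The windows are OLIG2 chr16:91225300-91225599 (plus strand), OPALIN chr19:41077064-41077363 (minus strand), CNP chr11:100574689-100574988 (plus strand) and the first of 3 listed for MAG, chr7:30914814-30915113 (minus strand).
OLIG2: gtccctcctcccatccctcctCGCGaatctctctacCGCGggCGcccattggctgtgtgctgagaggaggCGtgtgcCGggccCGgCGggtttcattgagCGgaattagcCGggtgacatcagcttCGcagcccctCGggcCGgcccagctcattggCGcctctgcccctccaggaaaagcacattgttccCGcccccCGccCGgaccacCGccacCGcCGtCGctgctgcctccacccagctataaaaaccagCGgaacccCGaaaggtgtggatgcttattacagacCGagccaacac
OPALIN: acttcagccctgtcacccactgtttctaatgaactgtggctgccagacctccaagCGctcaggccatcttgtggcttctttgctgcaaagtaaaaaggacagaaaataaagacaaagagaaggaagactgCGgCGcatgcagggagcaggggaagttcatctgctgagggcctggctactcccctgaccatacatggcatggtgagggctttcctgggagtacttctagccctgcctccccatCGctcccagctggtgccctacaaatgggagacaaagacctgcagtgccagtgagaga
CNP: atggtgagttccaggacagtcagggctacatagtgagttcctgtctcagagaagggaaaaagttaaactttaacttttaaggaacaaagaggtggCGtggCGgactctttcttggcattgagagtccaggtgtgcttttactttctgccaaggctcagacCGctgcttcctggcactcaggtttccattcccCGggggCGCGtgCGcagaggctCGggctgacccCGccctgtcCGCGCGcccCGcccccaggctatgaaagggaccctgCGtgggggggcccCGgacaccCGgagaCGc
MAG: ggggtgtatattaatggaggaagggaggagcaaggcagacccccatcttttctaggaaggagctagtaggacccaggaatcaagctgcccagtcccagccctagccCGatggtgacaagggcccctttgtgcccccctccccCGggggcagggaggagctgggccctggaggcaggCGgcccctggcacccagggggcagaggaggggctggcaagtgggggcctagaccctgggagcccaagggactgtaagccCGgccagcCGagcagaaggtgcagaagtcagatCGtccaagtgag

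The OLIG2 window held 25 CpGs and the CNP window 17, at percentiles 83.1 and 70.3 of all 32851 windows, whose median was 7. The MAG window held 6 and the OPALIN window 4. The remaining windows were also poor in CpG, with 5 in MOBP and 3 in MOG. Windows for 6 of the 9 genes were matched, and the promoters of OLIG1, SOX10 and MBP were not analysed here. Across genes, reads followed CpG number only weakly, with Spearman's rho between 0.145 and 0.265 over the 6 sections, as a description over genes that share libraries. The Sox-type motif ACAAAG, sought on both strands, occurred 6 times in the MOBP window, 2 times in OPALIN and once each in CNP and MAG, and was not found in the OLIG2 and MOG windows. Of all windows, 18.7% held it. The motif ACAATG, held by 12.6% of windows, and the TATA box TATAAA, held by 13.6%, each occurred once in OLIG2, and the E-box CAGCTG, held by 16.3%, once in OPALIN. None of the 4 motifs contains another.

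The deposited values are the authors' quantile-normalised signal per gene and array spot. Genes tied in a spot were taken to have been ranked by their place in a gene list. Reads were recovered from those ties on that assumption. The sections held 403483 to 5981684 recovered reads. The median gene held 120 reads in the brain, 14, 12 and 7 in the embryo for H3K27me3, H3K27ac and H3K4me3, 274 in the arthritis paw and 142 in the control paw. Levels are given as relative levels, the reads of a gene divided by the mean of all genes of its section, and as percentiles of reads among the genes of the section. OPALIN shows why the deposited values were not used for levels: it stands late in the gene order, and its deposited percentiles ran from 75.4 to 95.7, against 27.6 to 90.3 for its reads.

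In the adult brain, H3K4me3 reads were recovered from all 7 listed genes. OLIG2 had 290 reads, a relative level of 1.62 and percentile 87.3. SOX10 had 140 reads and percentile 58.4, and OLIG1 had 48 reads and percentile 8.68. In reads not divided by length, OLIG2 was thus high and OLIG1 low among the genes of the section. Among the myelin genes, MAG, an adhesion protein of the myelin membrane that faces the axon, had 388 reads, a relative level of 2.16 and percentile 93.2. MOG, a protein of the outer surface of central myelin, had 191 reads and percentile 73.5, and CNP, a phosphodiesterase of non-compact myelin, had 170 reads and percentile 68.2. OPALIN, a membrane glycoprotein of oligodendrocytes, had 94 reads and percentile 37.6. Per kb of gene, the order in the brain was OLIG2 (92.7 reads per kb), MAG (24.6), OLIG1 (22.1), MOG (15.1), SOX10 (14.6), CNP (10.0) and OPALIN (6.20). The counting intervals of MAG (22.2 to 27.2 reads per kb) and OLIG1 (16.3 to 29.3) overlapped, as did those of MOG (13.0 to 17.4) and SOX10 (12.3 to 17.2).

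The tissue label was checked against markers of brain cells. Of 8 neuron genes 7 were listed in the brain, with 42 to 748 reads and a median percentile of 81.8. RBFOX3, a neuronal nuclear protein, had 748 reads and SYP, a synaptic vesicle protein, had 387, while TUBB3 and STMN2 had 42 and 46. Of 8 astrocyte genes 6 were listed, with a median percentile of 76.8, and GFAP was not among them. Per kb of gene, the median percentile was 20.6 for the neuron genes, 72.7 for the astrocyte genes and 75.5 for the 7 oligodendrocyte and myelin genes, so the high rank of the neuron list was not kept when span was divided out. The 7 listed oligodendrocyte and myelin genes had a median percentile of 68.2, set beside 78.5, 65.1 and 37.5 for all 9 in embryo H3K27me3, H3K27ac and H3K4me3, 64.1 for 7 in the arthritis paw and 72.0 for 9 in the control paw. These sections list different numbers of genes. Ranked against the 9471 genes listed in all 6 sections, the medians were 63.5 in the brain, 65.2, 45.1 and 14.5 in embryo H3K27me3, H3K27ac and H3K4me3, 61.3 in the arthritis paw and 54.6 in the control paw, so the order of brain and control paw turns with the genes ranked.

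**Figure D1:**
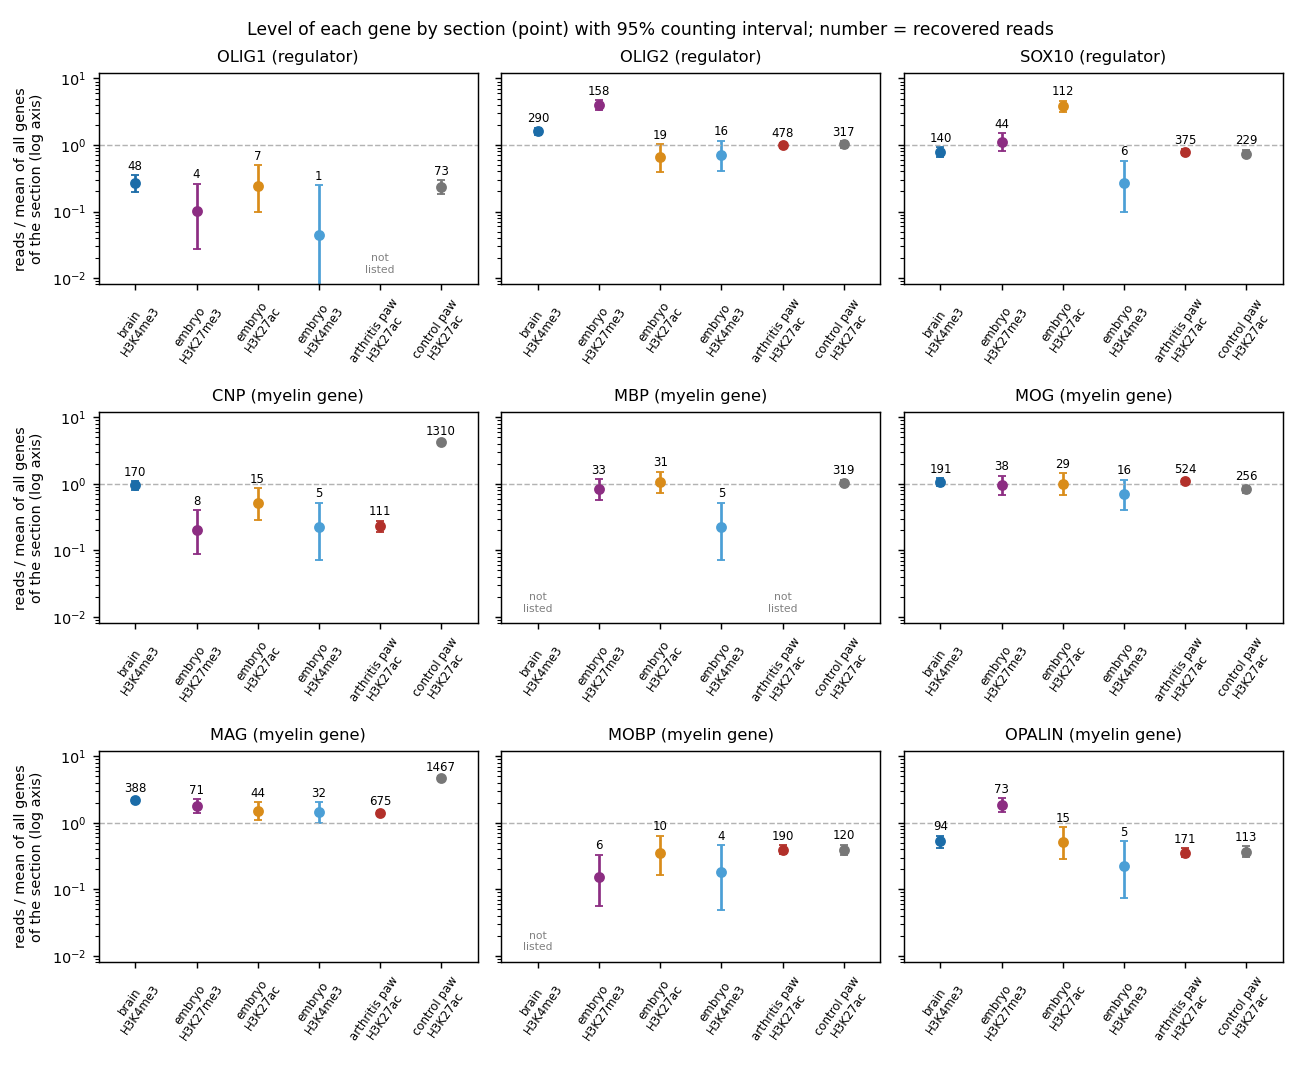
Relative level of each of the 9 genes (y, reads divided by the mean of all genes of the section, log axis) in the 6 sections (x), with 95% counting intervals and the recovered reads above each point. The bar of OLIG1 in embryo H3K4me3, from 1 read, runs below the axis. OLIG2 stands at 4.01 in embryo H3K27me3, SOX10 at 3.87 in embryo H3K27ac, and CNP and MAG at 4.24 and 4.75 in the control paw.

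The 9 genes span 2.17 kb (OLIG1) to 110.5 kb (MBP), so the classes were set side by side both per kb of gene and without division by length. Every regulator (2.17 to 9.58 kb) is shorter than every myelin gene (12.7 to 110.5 kb), so division by span by itself favours the regulators in each section. Per kb of gene, the median percentile of the regulators was 82.7 and that of the listed myelin genes 70.6 in brain H3K4me3. In embryo H3K4me3 the medians per kb were 61.9 for regulators and 45.7 for myelin genes. The regulators stood above the myelin genes per kb in the other 4 sections too, with medians of 85.8 and 60.0 in embryo H3K27me3, 91.3 and 60.7 in embryo H3K27ac, 85.2 and 46.4 in the arthritis paw, and 82.8 and 61.3 in the control paw. For reads that were not divided by length the order was not constant: the regulators' median percentile was 12.5 points below that of the myelin genes in the brain (counting interval of the difference -28.3 to 3.38) and 5.40 points above it in embryo H3K4me3 (-44.1 to 58.3). Both intervals include 0, and both signs turned under other settings. The brain difference was 2.38 over the genes listed in all 6 sections, a setting that also drops OLIG1, which stood at percentile 4.35 against those genes. That of embryo H3K4me3 was -30.4 with the deposited values and -20.0 with the mean of spot shares. Over all genes, reads were only weakly related to gene span (Spearman's rho across genes 0.145 to 0.193), and the sources used here do not give the window in which reads were counted. The order of the 2 classes thus depends on whether span is divided out.

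The comparison of adult brain with embryo asks how H3K4me3 at these genes differs between a tissue with myelin and an embryo at a stage before myelin. All 7 genes listed in both sections lay above the median log2 ratio of the 11127 genes compared, which was 0.66, but only CNP lay 2-fold or more above it. Of all genes, 7.23% lay 2-fold or more above the median, and 19.0% lay that far above or below it. CNP had 170 reads in the brain and 5 in the embryo, a log2 ratio of 1.88, or 2.33-fold above the median gene. SOX10, with 140 reads in the brain and 6 in the embryo, had a log2 ratio of 1.46, and OLIG1, with 48 and 1 in the same order, had 1.42. OLIG2 had 290 reads in the brain and 16 in the embryo, with a log2 ratio of 1.32. The 3 regulators lay close together, between 1.32 and 1.46.

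OPALIN had 94 reads in the brain and 5 in the embryo (log2 ratio 1.14), MAG 388 and 32 (0.83), and MOG 191 and 16 (0.76). MAG and MOG were thus near the median gene. In the embryo section they stood at percentiles 88.5 and 74.1, and at 82.4 and 60.3 against the genes listed in all 6 sections. Summed reads were 478 in the brain and 23 in the embryo for the regulators, a log2 ratio without pseudocount of 1.66 (interval 1.06 to 2.33). For the 4 myelin genes they were 843 in the brain and 58 in the embryo, with a log2 ratio of 1.15 (interval 0.76 to 1.56). These intervals overlap, and the median log2 ratio of the regulators exceeded that of the myelin genes by 0.43 (interval -1.76 to 2.996). A difference between the 2 classes was not detectable at this depth.

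The embryo H3K4me3 section limits this comparison, since it gave 5 reads or fewer for 5 of the 9 genes: CNP, MBP and OPALIN had 5 each, MOBP 4 and OLIG1 1. The call of CNP held under 5 of 9 alternative settings. The direction relative to the median gene held under all 9 for OLIG1, OLIG2, SOX10 and CNP, under 8 for MOG and OPALIN and under 6 for MAG. Brain and embryo also differed in section thickness, in spots (1200 and 248) and in genes listed (11345 and 18066). The part of these differences in the ratios was not tested, and tissue and age cannot be told apart from section.

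Beside these values, 7 neuron genes had a summed log2 ratio of 1.13 and 6 astrocyte genes one of -0.06. Of 29 further genes of the lineage, 15 were listed in both sections, and 8 of these lay above the median of all genes. Of the 15, 0 lay 2-fold or more above it, where 7.23% of all genes did. The 2 genes GAL3ST1 and MYRF lay 2-fold or more below it, where 11.7% of all genes did. MYRF had 97 reads in the brain and 21 in the embryo (log2 ratio -0.44). The highest were TMEM125 (163 reads in the brain, 6 in the embryo, log2 ratio 1.65), MAL, a proteolipid of myelin (219 and 9, 1.62), and GPR17, a receptor of committed precursors (94 and 3, 1.57). Of the 9 compared Schwann cell genes, 7 lay within 2-fold of the median of all genes and 3 lay above it. The other 2 lay 2-fold or more below it, where 11.7% of all genes did. Their median log2 ratio was 0.47, and the highest was PMP22 (1.53). The 2 lowest were PRX, a protein of peripheral myelin, and ERBB3, a neuregulin receptor. PRX had 247 reads in the brain and 815 in the embryo (log2 ratio -4.34), and ERBB3 had 143 and 231 (-3.25). GAL3ST1, which makes the myelin lipid sulfatide, had 783 reads in the brain and 231 in the embryo (-0.94). The embryo sum of PRX is a lower bound, because 147 of its reads lay where the recovery is not exact.

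**Figure D2:**
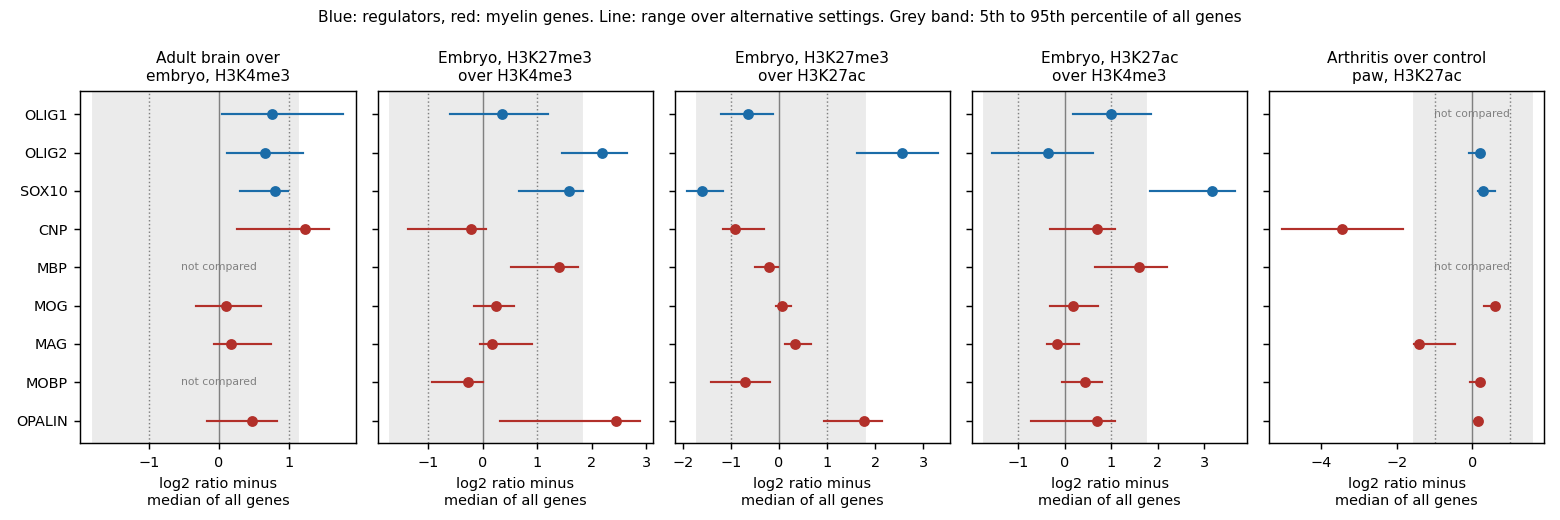
Log2 ratio of each gene minus the median of all genes (x) in the 5 comparisons, with regulators in blue and myelin genes in red. Points are the reported values, lines run over the alternative settings, dotted lines mark 2-fold and the grey band runs over the 5th to 95th percentile of all genes. OLIG2 and OPALIN stand to the right in both H3K27me3 panels, SOX10 stands far right for H3K27ac over H3K4me3, and CNP stands far left in the paws.

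Within the embryo, the comparison of marks asks which of these genes carry the silencing mark and which the active marks at E11.5. The 3 embryo comparisons share their sections with each other. OLIG2 had 158 reads for H3K27me3, 19 for H3K27ac and 16 for H3K4me3. Its H3K27me3 reads came from 108 of 254 spots, a share of 42.5% (Clopper-Pearson interval 36.4 to 48.9%), with at most 6 reads in a spot. Its relative level of H3K27me3 was 4.01 (interval 3.41 to 4.69), at percentile 96.3 of the section, against relative levels of 0.656 for H3K27ac and 0.716 for H3K4me3. The H3K27me3 ratio was thus high against both active marks: the log2 ratio was 2.27 against H3K4me3 and 2.43 against H3K27ac, and each lay past 2-fold of the median gene under 9 of 9 alternative settings. OLIG1, the next gene to OLIG2 on the chromosome, had 4 H3K27me3 reads, 7 for H3K27ac and 1 for H3K4me3. At that number of reads no order of its marks can be read.

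SOX10 had the opposite emphasis between H3K27me3 and H3K27ac. It had 44 reads for H3K27me3, 112 for H3K27ac and 6 for H3K4me3, at percentiles 81.9, 96.2 and 42.9. The H3K27ac reads came from 79 of 251 spots, and the relative level of H3K27ac was 3.87 (interval 3.18 to 4.65). The log2 ratio was -1.71 for H3K27me3 against H3K27ac and 3.37 for H3K27ac against H3K4me3, and both lay past 2-fold of the median gene under 9 of 9 alternative settings. SOX10 was also higher for H3K27me3 than for H3K4me3, at a log2 ratio of 1.67 that held under 8 of 9 settings. Its neighbour POLR2F, a subunit of RNA polymerases, had 24, 12 and 8 reads for the same 3 marks, so the H3K27ac excess was not shared by the next gene.

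Among the myelin genes, OPALIN resembled OLIG2 in its marks. It had 73 reads for H3K27me3, 15 for H3K27ac and 5 for H3K4me3, with H3K27me3 at percentile 90.3 and in 62 of 254 spots. The log2 ratio was 2.53 for H3K27me3 against H3K4me3 and 1.65 against H3K27ac. Each lay past 2-fold of the median gene under 8 of 9 settings. With the deposited values the ratio of H3K27me3 to H3K4me3, taken from the median, was 0.33. The CpG content of the promoters shown above does not separate this pair from the rest, since the OLIG2 window is rich and the OPALIN window poor in CpG.

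MBP, whose product compacts the myelin sheath, had 33 reads for H3K27me3, 31 for H3K27ac and 5 for H3K4me3. Both of the first 2 marks were therefore above H3K4me3, with log2 ratios of 1.48 for H3K27me3 and 1.80 for H3K27ac, while the ratio between them was -0.33. MAG had 71, 44 and 32 reads for H3K27me3, H3K27ac and H3K4me3, and MOG had 38, 29 and 16 in the same order. Neither lay 2-fold from the median in any of the 3 comparisons. MAG stood at percentiles 90.0, 86.9 and 88.5 and MOG at 78.5, 77.7 and 74.1. Against the genes listed in all 6 sections, MAG stood at 84.0, 78.6 and 82.4 and MOG at 65.2, 64.2 and 60.3. CNP had 8, 15 and 5 reads and MOBP, a structural protein of compact central myelin, had 6, 10 and 4. Neither passed 2-fold from the median.

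In all, 4 of 9 genes (OLIG2, SOX10, MBP and OPALIN) were 2-fold or more above the median for H3K27me3 against H3K4me3, where 13.3% of all genes were, and 0 were that far below it, where 11.1% of all genes were. For H3K27me3 against H3K27ac, OLIG2 and OPALIN lay 2-fold or more above the median, where 12.3% of all genes did, and SOX10 lay 2-fold or more below it, where 11.6% did. For H3K27ac against H3K4me3, SOX10 and MBP lay 2-fold or more above, where 12.9% of all genes did. The medians over the 9 genes were 0.44, -0.33 and 0.88 on the log2 scale in these 3 comparisons, beside medians of all genes of 0.08, -0.12 and 0.20. For H3K27me3 against H3K4me3 the 3 regulators had a median log2 ratio of 1.67 and the 6 myelin genes 0.29. The counting interval of that difference (1.37) ran from -1.11 to 3.95.

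The further lineage genes were set beside these values. Of 29 oligodendrocyte genes, 3 lay 2-fold or more above and 4 below the median for H3K27me3 against H3K4me3, with a median log2 ratio of -0.06. Of all genes, 13.3% lay that far above it and 11.1% that far below. The highest were SIRT2, a deacetylase abundant in myelin (153 reads for H3K27me3, 25 for H3K4me3, log2 ratio 1.65), and ZFP536 (135 and 23, 1.58). Of the Schwann cell genes, GLDN, a ligand at the nodes of Ranvier, had 348 reads for H3K27me3 and 2 for H3K27ac (5.71). EGR2, a transcription factor of myelinating Schwann cells, had 25 reads for H3K27me3, 71 for H3K27ac and 8 for H3K4me3. It had more H3K27ac than H3K4me3, with a log2 ratio of 2.42, as SOX10 did. Of 11 Schwann cell genes compared for H3K27ac against H3K4me3, 3 lay 2-fold or more above the median, where 12.9% of all genes did. PRX (-4.55) and ERBB3 (-4.38) went the other way and were the 2 that lay that far below it, where 12.3% of all genes did. GJB1, a connexin of myelinating glia, had 1261 reads for H3K27ac in 239 of 251 spots, against 8 for H3K27me3 and 4 for H3K4me3, and alone held most of the 1902 H3K27ac reads of the oligodendrocyte list. Its H3K27ac sum is a lower bound, because 655 of the reads lay where the recovery is not exact.

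In the paws the comparison asks how H3K27ac differs between arthritis and control, in a tissue whose myelin is that of peripheral nerve. Of 12 Schwann cell genes, 10 were listed in the arthritis paw and 12 in the control paw, with median percentiles of 51.1 and 66.7. Of the 7 genes listed in both paws, CNP and MAG were 2-fold or more below the median log2 ratio of all 11130 genes, which was 0.11. Of all genes 9.04% lay that far below it, and 0 of the 7 lay 2-fold or more above it, where 9.84% of all genes did. CNP had 111 reads in the arthritis paw and 1310 in the control paw, with relative levels of 0.231 and 4.24 and a log2 ratio of -3.33. The ratio is scaled to the 11130 genes listed in both paws, over which the control level of CNP was 3.24. Of the control reads of CNP, 109 lay where the recovery is not exact, so its control level may be too low. MAG had 675 reads in the arthritis paw and 1467 in the control paw, with relative levels of 1.41 and 4.75 and a log2 ratio of -1.31. Over the genes listed in both paws its control level was 3.62. The arthritis and control paws also differed in spots (943 and 554), genes listed (11130 and 19378) and median reads per spot (5296 and 10114.5). The part of these differences in the ratios was not tested. The call of CNP held under 10 of 10 alternative settings, 1 of them added after the reads by array column were seen, and that of MAG under 8, with the ratio of MAG taken from the median at -0.46 in the weakest.

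The reads of CNP in the control paw were uneven over the array. The array columns 1, 5, 9 and so on, in steps of 4, held 45.6% of them, but 12.9% of all reads and 23.3% of the spots. In the arthritis paw the same columns held 26.1% of CNP reads, 22.4% of all reads and 26.1% of the spots. Without these columns CNP had 82 reads in the arthritis paw and 712 in the control paw, and the control relative level was 2.65. Its log2 ratio, taken from the median, was then -2.86, against -3.44 with all columns. For MAG the columns held 21.8% of the reads in the arthritis paw and only 7.57% in the control paw, and the ratio taken from the median was -1.51 without them and -1.42 with them. The same side of the median was thus seen with and without these columns for both genes, and what sets the columns apart was not tested.

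**Figure D3:**
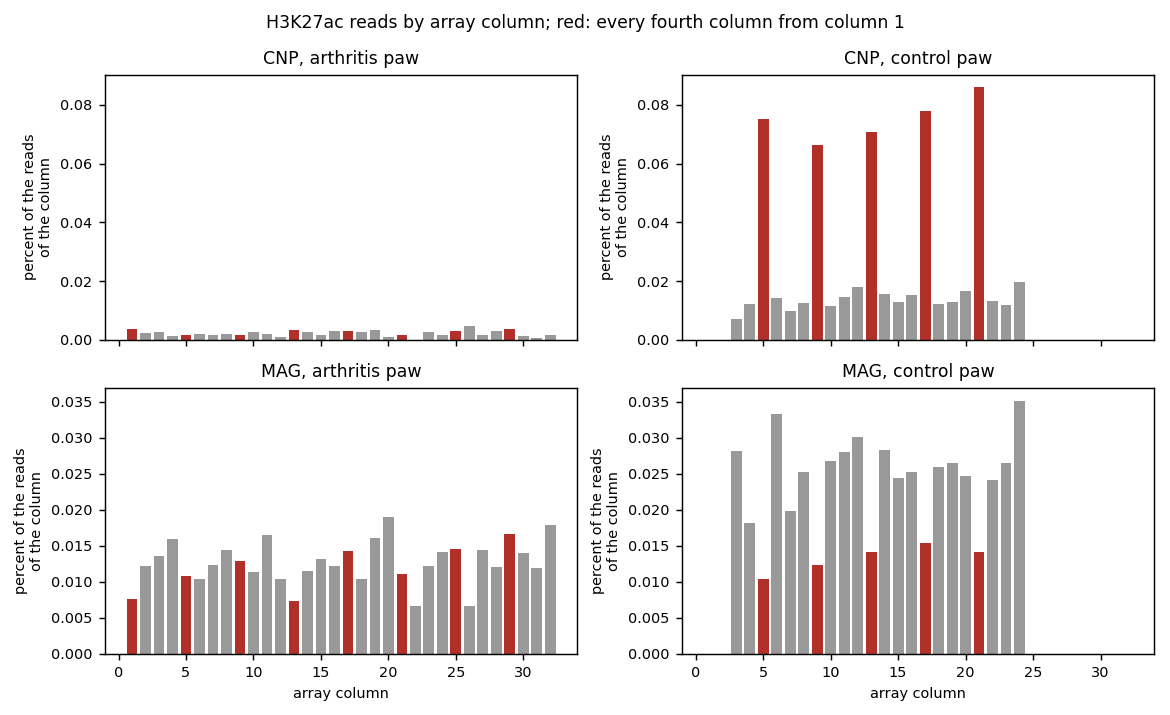
Reads of CNP (top) and MAG (bottom) as a percent of all reads of each array column (y) by array column (x) in the arthritis paw (left) and the control paw (right), with columns in steps of 4 from column 1 in red. In the control paw the columns 5, 9, 13, 17 and 21 stand above all others for CNP, at 0.0664% to 0.0860%, and are low for MAG.

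The other 5 genes were close to the median gene in the paws. MOG had 524 reads in the arthritis paw and 256 in the control paw (log2 ratio 0.70), and SOX10 had 375 and 229 (0.40). OLIG2 had 478 reads in the arthritis paw and 317 in the control paw (0.31), MOBP 190 and 120 (0.32), and OPALIN 171 and 113 (0.27). All 5 were within 2-fold of the median, so the summed log2 ratio of the myelin genes, -1.21 (interval -1.30 to -1.13), came from CNP and MAG. OLIG1 and MBP, with 73 and 319 reads in the control paw, could not be compared. CNP overlaps its neighbour DNAJC7, a co-chaperone gene, which had 445 reads in the arthritis paw and 467 in the control paw.

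Further lineage genes lay past 2-fold on both sides of the median between the paws, in numbers near the shares of all genes. Of 17 oligodendrocyte genes compared, 2 lay 2-fold or more above and 3 below the median, where 9.84% and 9.04% of all genes did. Below it were ASPA, which breaks down N-acetylaspartate (209 reads in the arthritis paw, 1024 in the control paw, log2 ratio -2.30), GAL3ST1 (1082 and 3358, -1.84) and LPAR1, a receptor for lysophosphatidic acid (412 and 1320, -1.81). Above it were MYRF, a transcription factor that switches on myelin genes (895 and 219, 1.62), and MAL (702 and 195, 1.43). Of 10 Schwann cell genes, 1 lay 2-fold or more above and 1 below the median, and NCMAP, a protein of non-compact peripheral myelin, was the highest (868 and 266, 1.33). The median log2 ratios of the lists were -0.02 and -0.10, beside 0.11 for all genes. Lists of other cell types varied. Summed reads of 4 vascular genes were 935 in the arthritis paw and 1982 in the control paw (log2 ratio -1.33), and those of 4 astrocyte genes were 995 and 1806 (-1.11). Those of 7 neuron genes, 4072 and 3563, hardly differed (-0.05), and those of 4 microglia genes were 1812 and 1302 (0.23). Their part in the values of CNP and MAG was not tested. In bulk signal of this kind, fewer cells of a type and less mark per cell cannot be told apart.

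Over the 6 sections, each ranked on its own listed genes, MOG had the narrowest range of rank, between percentiles 72.0 and 78.5. MAG stood between 83.3 and 97.4 and OLIG2 between 65.1 and 96.3. OLIG1 and MOBP stayed below percentile 50 in each of the 5 sections that list them, although OLIG1, the shortest of the 9 at 2.17 kb, stood at percentile 82.7 per kb in the brain. CNP had the widest range, from percentile 10.9 in the arthritis paw to 96.9 in the control paw. SOX10 ran from 42.9 in embryo H3K4me3 to 96.2 in embryo H3K27ac, and OPALIN from 27.6 in the arthritis paw to 90.3 in embryo H3K27me3. Against the 9471 genes listed in all 6 sections, MOG ran from percentile 54.6 to 74.9 and MAG from 78.6 to 96.0. The narrow range of MOG thus depends on the genes ranked.

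Most of these genes showed little spatial order. Moran's I, which is above 0 where neighbouring spots are alike, was computed on each spot's share of reads for the genes with at least 10 reads. In the brain it ran from -0.02 (CNP) to 0.02 (MAG), where the 5th to 95th percentile of all genes ran from -0.02 to 0.03, and for the 7 genes summed it was -0.02. The value of OLIG2 in embryo H3K27me3 was 0.00014, and that of SOX10 in embryo H3K27ac was -0.02. In embryo H3K27ac, MOBP (0.08, percentile 98.2 of all genes, from 10 reads) and MBP (0.07, percentile 97.2, from 31 reads) were higher, and OPALIN and CNP, with 15 reads each, had 0.05. CNP in the control paw had 0.19, at percentile 99.6 of all genes, and this is the gene whose reads were concentrated in 1 of each 4 columns. MAG in the control paw had 0.08 (percentile 94.8) and SOX10 in the arthritis paw 0.06 (percentile 98.1).

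**Figure D4:**
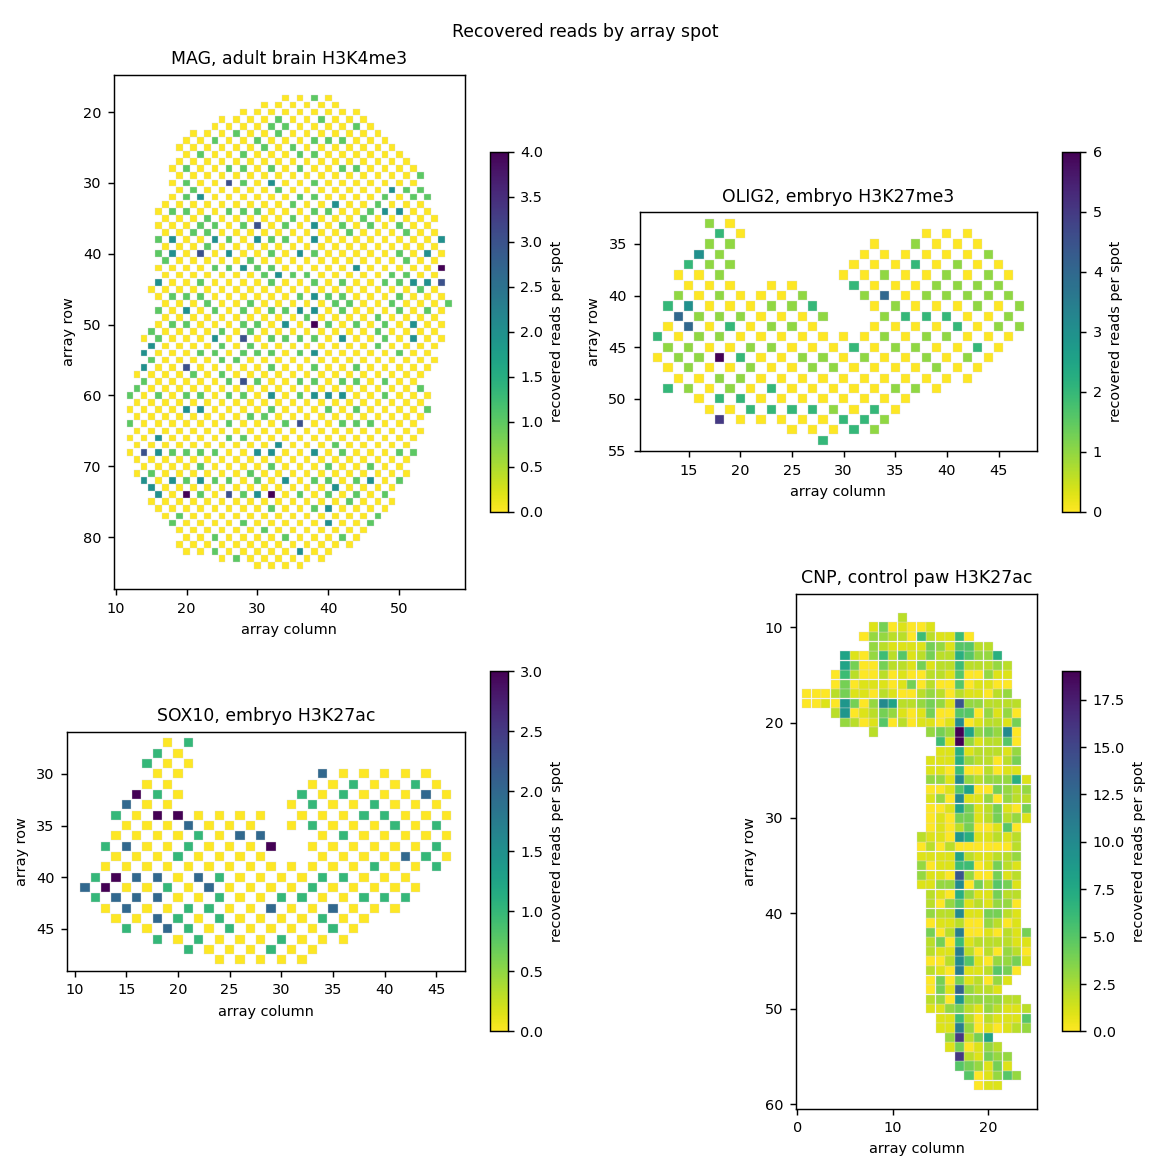
Recovered reads per spot (colour) by array column (x) and array row (y) for MAG in the adult brain, OLIG2 in embryo H3K27me3, SOX10 in embryo H3K27ac and CNP in the control paw. Reads are scattered over the first 3 sections, with at most 4, 6 and 3 in a spot, and reach 19 in a spot of the control paw, where they line up in columns.

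At least 1 of the 7 genes had a read in 672 of 1200 brain spots (56.0%), and 315 spots held reads of 2 or more of them, with at most 5 in a spot. The share of a spot's reads held by one gene was nearly unrelated to that held by another: the 21 pairs of genes had Pearson correlations over spots between -0.04 and 0.03. The genes whose share of reads per spot was most like the sum of the 7, among 6776 genes with at least 100 reads, were ATG16L2 (r = 0.19), PFKL (0.18), DDIT4 (0.18), HES2 (0.18) and TCF7L1 (0.18), over 1200 spots that share their depth. These values are weak and none of the 5 is a gene of the lists above. With 388 or fewer reads per gene over 1200 spots, a spatial pattern of single genes was not detectable at this depth.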

How the data were processed

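The authors deposited quantile-normalised signal for each gene in each spot, as the file names say. The submitters' processing notes name Bowtie2, MACS2 and featureCounts and the builds mm9 and hg19, without roles or versions. Ties within a spot were taken to have been ranked in the gene order of the control paw. Each fall in that order was taken as 1 further read. Reads were recovered on this assumption (92.9% to 95.4% of the total implied by the deposited signal). Rank by rank, the recovered and implied totals were equal at 98.8% to 99.1% of ranks in the paws. They were equal at only 37.4% of ranks in the brain and 50.8% to 51.6% in the embryo, so recovery was less exact there. The median spot held 1179 reads in the brain, 1481.5 to 2596.5 in the embryo, 5296 in the arthritis paw and 10114.5 in the control paw. The recovery was also run on simulated data whose ties were ranked in the same gene order, so that run could not test the assumed order.

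For ratios, a gene's mean reads per spot were scaled to the mean of the genes shared by the compared sections, a pseudocount of 0.1 was added and log2 was taken. A ratio 2-fold or more from the median of all genes was counted. Intervals are exact Poisson, conditional binomial (ratios, without the pseudocount) or Clopper-Pearson at 95%. They cover counting error only, since duplicates could not be told from independent fragments. Named genes were all 9, and of the other lineage genes with at least 50 reads the 3 highest and 3 lowest per comparison. Some genes that meet this rule are not reported here. POLR2F, DNAJC7, MYRF in brain against embryo and the cell type markers named were chosen after their values were seen. The 9 genes, lists and alternatives were chosen with earlier results of these data known. Python 3.11.15, NumPy 2.4.6, pandas 2.3.3 and SciPy 1.17.1 were used.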

Additional observations from a re-analysis of the deposited data

How the results depend on the processing

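No paired analysis was possible because each group has 1 section, and for the same reason no section could be left out. The count of genes 2-fold or more from the median in brain against embryo (1) was 0 with a pseudocount of 1, deposited values, the mean of spot shares or even columns, and 2 with a pseudocount of 0.01, the share of spots with a read or odd columns. A pseudocount of 1 gave 2 in place of 4 for H3K27me3 against H3K4me3, 1 in place of 2 for H3K27ac against H3K4me3 and 1 in place of 2 in the paws, where the share of spots also gave 1. For H3K27me3 against H3K27ac, 5 in place of 3 came with a pseudocount of 0.01 and with a trimmed mean. For H3K27ac against H3K4me3, odd columns gave 5 and a trimmed mean 4. No call of the reported fit took the opposite sign under these settings.

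The regulators' median percentile minus that of the myelin genes was -12.5 in the brain (-38.4 with deposited values, 12.1 per kb), -2.45 in embryo H3K27ac (30.6 per kb), 5.14 in embryo H3K27me3 (25.9 per kb), 36.4 in the arthritis paw (-6.03 with deposited values, 17.4 over genes listed in all 6 sections) and -7.10 in the control paw (-32.4 with deposited values, -17.8 over those genes, 21.5 per kb). Further turns of sign lay within the counting intervals: 2.38 in the brain and 20.3 in embryo H3K27ac over genes listed in all 6 sections, 8.10 with deposited values and 7.60 with odd columns in embryo H3K27ac, -2.94 with deposited values in embryo H3K27me3, and, in embryo H3K4me3 (5.40), -30.4 with deposited values and -20.0 with the mean of spot shares. The setting over genes listed in all 6 sections leaves OLIG1, MBP and MOBP out of the classes, so it changes the members as well as the genes ranked. Settings per kb, over genes listed in all 6 sections and without 1 in 4 array columns of the paws were chosen after seeing the data. The cause of each move was not tested. The difference of median log2 ratios between the classes stayed within its counting interval under 46 of 46 alternatives, and these intervals are wide. Depth limits the embryo most, where the median gene held 7 to 14 reads.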
